A study of Mus musculus with 24 samples.

Results

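The lysosome is acidified by the vacuolar proton pump (V-ATPase), and the acid activates its proteases, the cathepsins. The genes described here are the subunits of that pump, the lettered cathepsins and the major membrane glycoproteins of the lysosome, Lamp1 and Lamp2, in mouse liver during pancreatitis. They were chosen by symbol alone: every entry named Atp6v0 or Atp6v1 with a subunit letter, Cts with a single letter, or Lamp1 or Lamp2. This gave 42 of the 55536 entries measured, namely 13 subunits of the V1 sector, 9 of the V0 sector, 14 cysteine cathepsins, 2 aspartic cathepsins, 2 serine cathepsins and 2 Lamp genes. Of the 42, 28 had a mean of at least 1 TPM (transcripts per 1000000) over all libraries and were tested. These 28 also averaged over 1 TPM in each group separately, so none passed the filter through a single group.

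RNA had been sequenced from 24 liver libraries of wild-type Balb/c mice, 6 weeks old. The groups were controls (Con), acute pancreatitis (AP) and its severe form (SAP), in which other organs may also fail, with 8 libraries each. The labels give neither the way pancreatitis was induced nor the time at which livers were taken, and they name no batch. They do not state that each library came from a separate mouse, so the spread behind each p-value is that between libraries and may in part be technical.

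In the V-ATPase, the V1 sector on the cytosolic face breaks down ATP and turns a central rotor, and the rotor drives a proteolipid ring in the membrane V0 sector that carries protons into the lumen. V1 can detach from V0 and rejoin it, which switches the pump off and on. Cathepsins are made as inactive precursors, sorted to the lysosome largely by mannose 6-phosphate receptors, and cut into active form at low pH, while Lamp1 and Lamp2 line the inside of the lysosomal membrane. In the liver this system digests material taken up by endocytosis or delivered by autophagy, in hepatocytes and in resident macrophages alike. In the pancreas, cathepsin B can activate trypsinogen and cathepsin L can degrade it, and both are widely studied in pancreatitis there.

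Libraries summed to between 986423 and 993642 TPM and listed 17140 to 18565 entries above 0. TPM keeps no read counts, so the depth behind each value is unknown. Levels below are mean ± SD over the 8 libraries of a group and, because TPM is divided by transcript length, they can be compared between genes. Fold changes come from limma on log2(TPM + 1), which understates the change of low genes, and p-values are Benjamini-Hochberg adjusted over the 10555 genes tested. Across those genes AP differed little from Con, with 5.48% passing at an adjusted p under 0.05, whereas 74.0% passed between SAP and Con and 72.1% between SAP and AP. All comparisons share groups, so they are not independent of each other. The 10 hepatocyte markers summed to 80335 to 103601 TPM in Con, 83042 to 103196 in AP and 61786 to 85392 in SAP. The lower sum in SAP was mostly Apoa2 (40488 TPM in Con and 16112 in SAP on average), while Alb was 15491 and 16671 TPM. Of the 10 markers 3 were higher in SAP than in Con (44.2% of all genes tested were), 4 lower (29.8%) and 3 did not pass, with a median log2 change of -0.02. The mitochondrial genes took 17.1% ± 3.68 of TPM in Con, 10.9% ± 2.0 in AP and 4.46% ± 1.02 in SAP. Because TPM is relative to a fixed total, such shifts move the values of other genes, and the part of the mitochondrial share in any result here was not tested. In whole liver, fewer cells of a type and less RNA per cell cannot be told apart.

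The question put to SAP against Con was which components of the lysosomal protease system stood at another level in the liver in severe disease. Of the 28 genes tested, 18 were higher in SAP (64.3%, against 44.2% of all genes tested) and 2 were lower (7.14%, against 29.8%), while 8 did not pass. The share that passed in either direction, 71.4%, was close to the 74.0% of all genes. The median log2 change was 0.55, against 0.21 over all genes tested. All 8 SAP libraries lay above all 8 Con libraries for 10 of the genes (23.2% of all genes did so) and below them for 1 (14.6% of all genes), where 37.8% of all genes did either. When each library was instead centred on its median, 15 were higher and 5 lower, and over all genes 36.8% were higher and 40.7% lower. By role, with values as deposited, 5 of 8 V1 subunits, 4 of 7 V0 subunits, 5 of 8 cysteine cathepsins, both aspartic cathepsins and both Lamp genes rose. The genes that fell were 1 subunit of each sector, Atp6v1h and Atp6v0e2, and the serine cathepsin Ctsa did not pass.

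**Figure D1:**
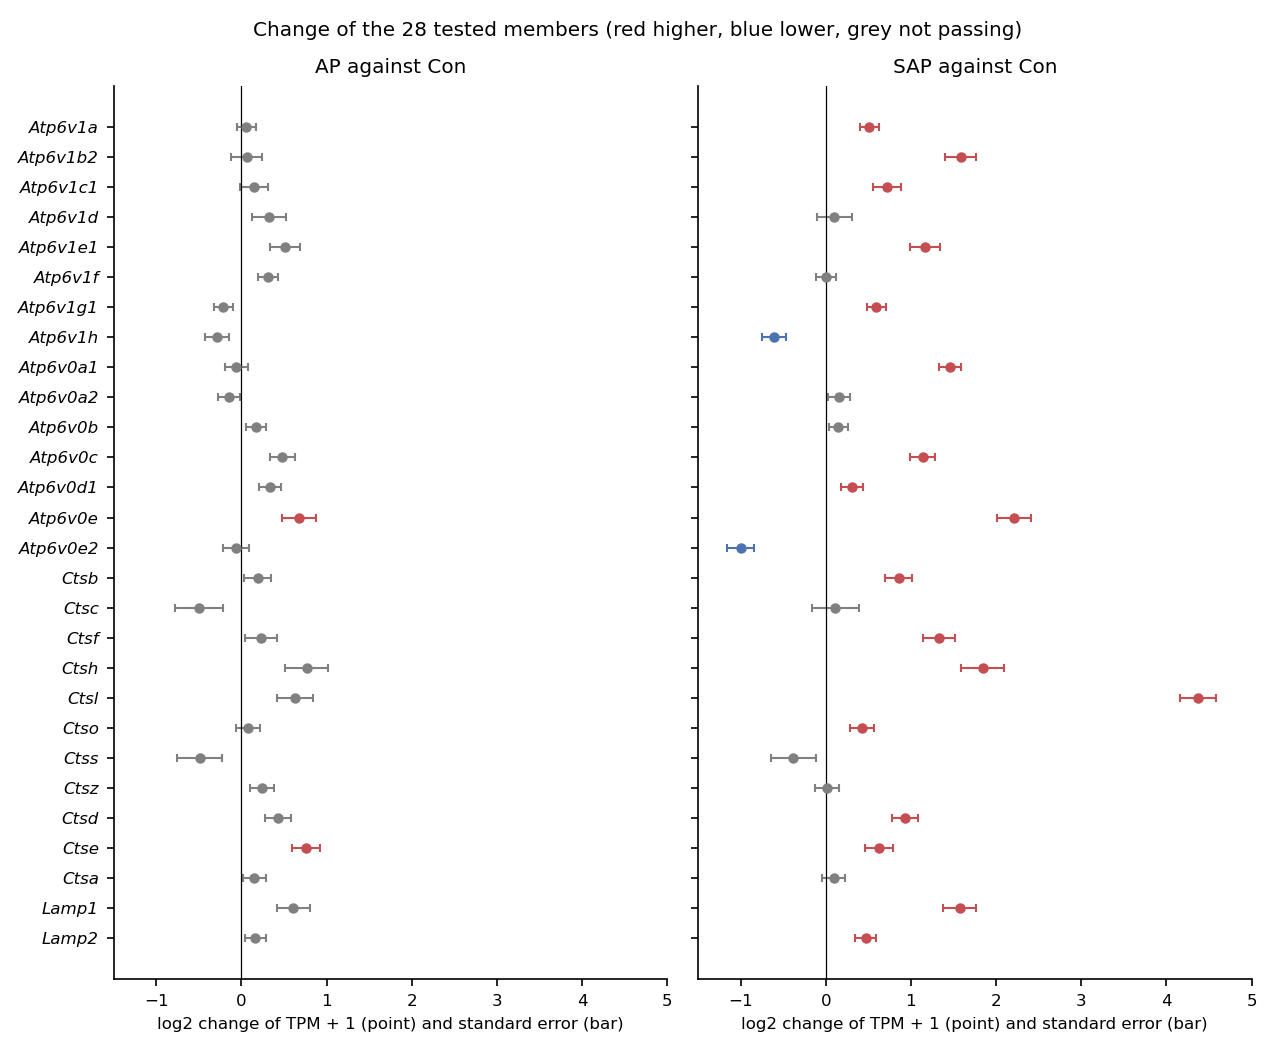
Fitted log2 change (horizontal axis, log2 of TPM + 1) with its standard error for the 28 genes tested, in AP against Con and in SAP against Con. Red marks genes that were higher at an adjusted p under 0.05, blue lower and grey not passing. The AP panel holds 2 red points (Ctse and Atp6v0e), and the SAP panel holds 18 red and 2 blue, with Ctsl far to the right at 4.37.

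Cathepsin L (Ctsl, chromosome 13), a broad endopeptidase of the lysosome, had the largest change of the family. Its level was 38.2, 77.5 and 125 TPM (lowest, median and highest) in Con, 83.6, 94.4 and 166 TPM in AP, and 1201, 1472 and 2154 TPM in SAP. No SAP library came near the other groups, while AP and Con overlapped. The mean was 77.3 ± 31.8 TPM in Con, 115 ± 34.7 in AP and 1523 ± 276 in SAP, which moved Ctsl from rank 894 among all entries in Con to rank 80 in SAP. The fitted log2 change from Con to SAP was 4.37 (SE 0.21), 20.7-fold, with an adjusted p of 3.47e-15 by limma, and it ranked 49 by size among rises of the 10555 genes. Against AP, SAP was 13.4-fold higher (limma adjusted p = 7.13e-14). Ctsl shares 26.3% of its 50-base windows with the predicted genes Gm47123, on the opposite strand, and Gm49230, on the same strand, so its level carries that uncertainty, but Gm49230 was at 0 in every library and Gm47123 averaged at most 0.120 TPM in any group.

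The other cathepsins together changed far less than Ctsl. Ctsl made up 13.8% ± 2.93 of all cathepsin TPM in Con, 16.9% ± 2.12 in AP and 69.4% ± 4.57 in SAP, and its lowest share in SAP, 64.3%, lay far above the highest in the other groups, 20.2%. Without Ctsl, the cathepsins summed to 469 ± 137 TPM in Con, 557 ± 104 in AP and 662 ± 92.3 in SAP, and the range in Con, 328 to 751 TPM, overlapped that in SAP, 540.1 to 792 TPM. The most abundant cathepsin in Con and AP was Ctsz, a carboxypeptidase, at 230.2 ± 71.0 TPM in Con, 265 ± 38.0 in AP and 226 ± 33.3 in SAP. Its log2 change from Con to SAP was 0.01, with a 95% confidence interval of -0.28 to 0.31 and an adjusted p of 0.943 by limma, but with libraries centred on their medians it turned to -0.26 (adjusted p = 0.0263). In SAP, Ctsl took its place as the most abundant cathepsin.

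**Figure D2:**
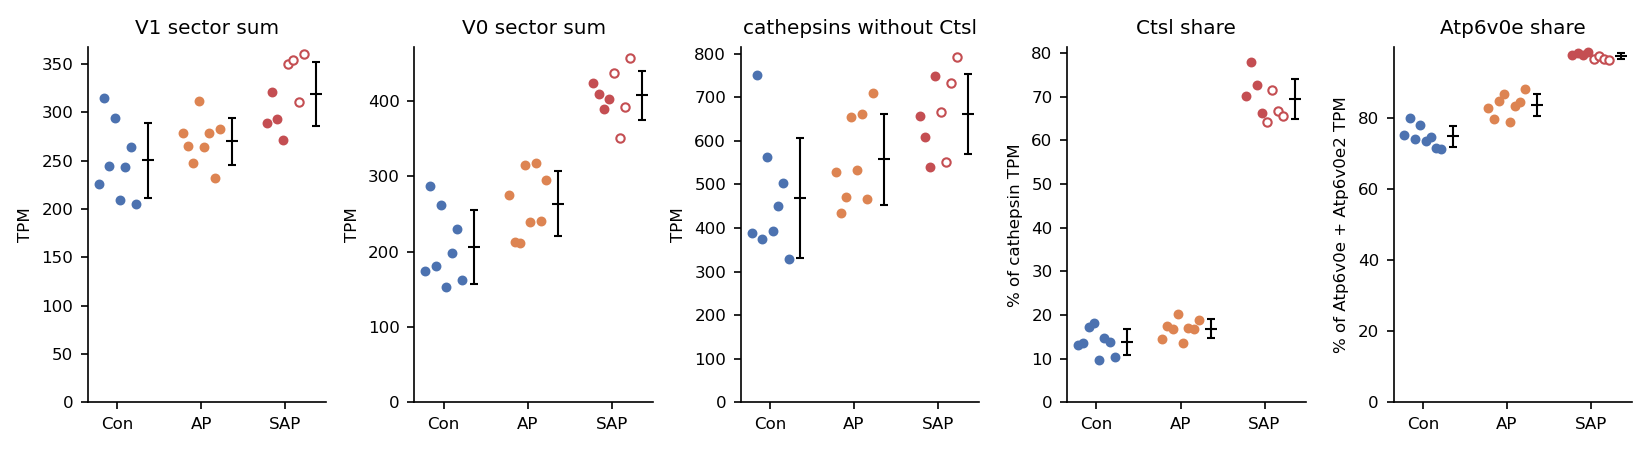
Each dot is 1 library. The panels show the summed TPM of the V1 subunits, the V0 subunits and the cathepsins without Ctsl, then the percentage of cathepsin TPM from Ctsl and the percentage of Atp6v0e in the sum of Atp6v0e and Atp6v0e2, by group. In the last 2 panels SAP lies above 64.3% and 96.2%, clear of Con and AP. The V0 sum in SAP, from 351 TPM, is also clear of them, whereas the V1 sum and the cathepsins without Ctsl overlap. The V0 sum includes Atp6v0c, whose level is uncertain because a pseudogene shares its sequence.

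Ctsh, an aminopeptidase, was the cysteine cathepsin with the next largest rise. It stood at 18.9, 32.9 and 63.6 TPM (lowest, median and highest) in Con, 34.8, 53.5 and 108 TPM in AP, and 90.8, 125 and 179 TPM in SAP. SAP cleared every Con library but overlapped AP. The rise over Con was 3.58-fold (log2 1.84, SE 0.25, limma adjusted p = 4.18e-07) and over AP 2.11-fold (adjusted p = 0.000504).

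Ctsf, a cathepsin of low abundance here, was 1.81 ± 0.852 TPM in Con, 2.26 ± 0.737 in AP and 6.08 ± 2.14 in SAP, a 2.51-fold rise over Con (limma adjusted p = 5.11e-07). Ctsb, the endopeptidase studied for trypsinogen activation in the pancreas, was 56.2 ± 15.5 TPM in Con, 63.8 ± 14.9 in AP and 101 ± 18.2 in SAP, a 1.81-fold rise over Con (adjusted p = 3.3e-05), and 6 of 8 SAP libraries lay above all Con libraries. Ctso rose 1.35-fold over Con, from 4.20 ± 0.934 to 6.11 ± 1.93 TPM (adjusted p = 0.00837), with overlapping groups. The rise of Ctso was found mainly in part of the SAP libraries: its mean was 4.86 TPM in SAP 21, 22, 24 and 25 and 7.37 TPM in SAP 26 to 29, and it no longer passed without the latter (adjusted p = 0.250), nor under quantile normalization or median centring (adjusted p 0.101 and 0.124).

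Ctss and Ctsc passed in neither SAP comparison with the values as deposited. Ctss, which trims the invariant chain in antigen-presenting cells, was at 10.4, 14.1 and 46.0 TPM (lowest, median and highest) in Con, 4.98, 12.2 and 14.8 TPM in AP and 6.25, 12.0 and 17.6 TPM in SAP. The groups overlapped throughout, and its log2 change from Con to SAP was -0.38 (95% confidence interval -0.92 to 0.16, limma adjusted p = 0.195). It passed as lower under quantile normalization and under median centring (log2 change -0.65 in both, adjusted p 0.0112 and 0.0103). Ctsc, which activates serine proteases of leukocyte granules, was 10.4 ± 5.17 TPM in Con, 6.86 ± 2.53 in AP and 11.7 ± 6.76 in SAP, with an adjusted p of 0.0534 between SAP and AP. It passed there when AP 12, 13 or 16 or SAP 21, 24 or 26 was left out, with adjusted p between 0.0173 and 0.0448, and also under rescaling without the 50 most abundant genes (0.0194) and without SAP 21, 22, 24 and 25 together (0.0216). The library Con 3 held the highest Con value of both, and it also had the highest sum of macrophage markers, 461 TPM, against a Con median of 199. The part of those cells in the values was not tested.

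Both aspartic cathepsins were higher in SAP, at very different levels. Ctsd, the main aspartic protease of the lysosome, stood at 41.2, 57.1 and 83.4 TPM (lowest, median and highest) in Con, 57.5, 73.9 and 105 TPM in AP and 90.3, 114 and 142 TPM in SAP. SAP cleared every Con library, by 1.91-fold in the fit (log2 0.93, limma adjusted p = 6.98e-06), and was 1.42-fold above AP (adjusted p = 0.00533). Ctsd overlaps the predicted gene Gm49369, with which it shares 32.4% of its windows, so its level is uncertain to that extent, although Gm49369 averaged at most 0.584 TPM in any group. Ctse, found in endosomes rather than mature lysosomes and best known from stomach and immune cells, averaged 1.25 ± 0.322 TPM in Con, 2.87 ± 0.865 in AP and 2.57 ± 1.12 in SAP. It was 1.55-fold higher in SAP than in Con (adjusted p = 0.00144), while SAP and AP differed by a log2 change of -0.13 (95% confidence interval -0.47 to 0.21, adjusted p = 0.477). The serine carboxypeptidase Ctsa, which also protects lysosomal beta-galactosidase and neuraminidase, was 51.1 ± 10.4 TPM in Con, 56.6 ± 8.74 in AP and 54.7 ± 10.7 in SAP, and none of its comparisons passed.

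Lamp1, one of the most abundant lysosomal membrane proteins, stood at 32.9, 60.4 and 77.9 TPM (lowest, median and highest) in Con, 54.4, 75.5 and 126 TPM in AP and 129, 164 and 198 TPM in SAP. Every SAP library lay above every library of the other groups. The rise was 2.98-fold over Con (log2 1.57, SE 0.19, limma adjusted p = 7.92e-08) and 1.95-fold over AP (adjusted p = 9.61e-05). Lamp2, needed for chaperone-mediated autophagy and for fusion with autophagosomes, moved less, from 79.1 ± 14.8 TPM in Con and 87.9 ± 11.5 in AP to 109.7 ± 17.6 in SAP. It was 1.39-fold above Con (adjusted p = 0.00136), a call lost when each library was centred on its median (log2 change 0.20), and 1.24-fold above AP (adjusted p = 0.0273), a call lost without AP 18 or SAP 25 (adjusted p 0.0615 to 0.0640), without either set of 4 SAP libraries and under median centring.

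**Figure D3:**
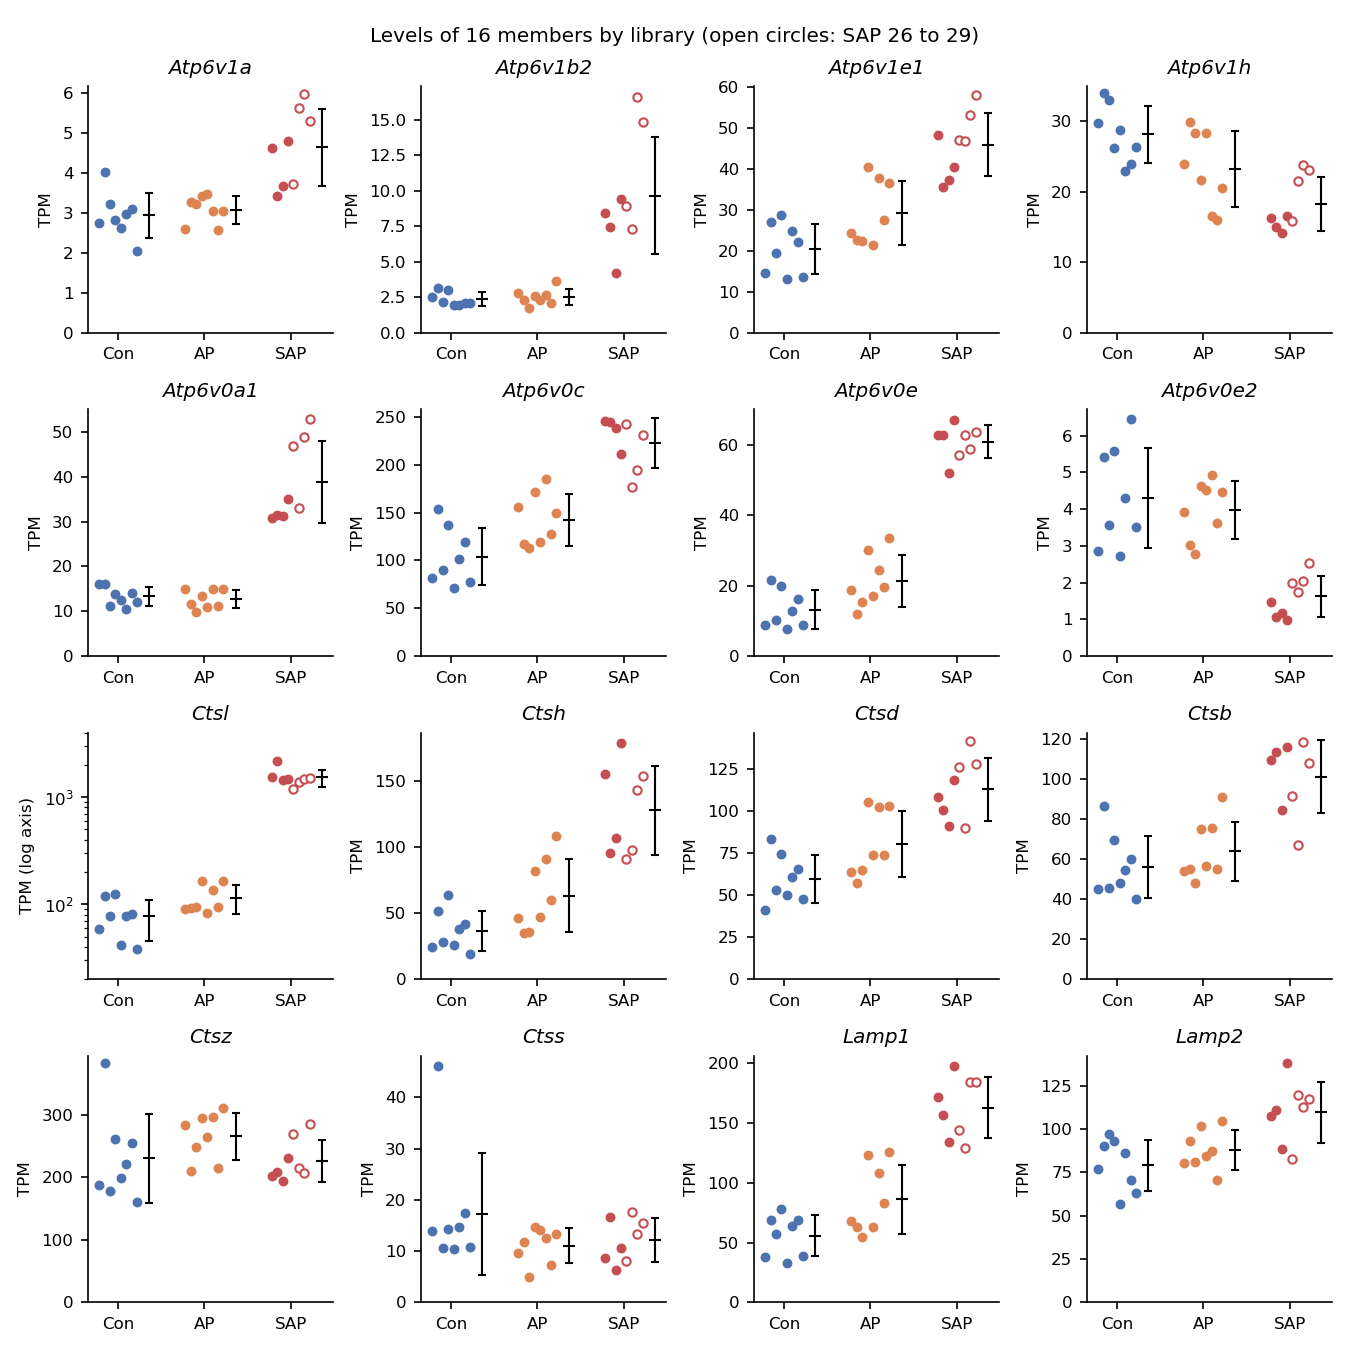
TPM of 16 of the genes in each library, by group, with the group mean and SD; open circles mark SAP 26 to 29, and the vertical axis of the Ctsl panel is logarithmic. SAP stands clear above Con for Ctsl, Ctsh, Ctsd, Lamp1, Atp6v0e, Atp6v0a1, Atp6v0c, Atp6v1b2 and Atp6v1e1, and clear below it for Atp6v0e2. It overlaps Con for Ctss, Ctsz, Ctsb, Lamp2, Atp6v1a and Atp6v1h.

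The V1 sector changed unevenly across its subunits. Atp6v1b2, the nucleotide-binding B subunit of most tissues, stood at 1.93, 2.12 and 3.17 TPM (lowest, median and highest) in Con, 1.74, 2.45 and 3.65 TPM in AP and 4.20, 8.68 and 16.6 TPM in SAP. SAP cleared both other groups, and it was 3.00-fold above Con (log2 1.58, SE 0.18, limma adjusted p = 1.7e-08) and 2.87-fold above AP (adjusted p = 3.69e-08). Its partner in the catalytic head, Atp6v1a, was 2.94 ± 0.567 TPM in Con, 3.08 ± 0.345 in AP and 4.65 ± 0.966 in SAP, 1.43-fold above Con (adjusted p = 0.000207). The catalytic head holds A and B subunits in equal number, and at the level of transcripts the B subunit thus had the larger fold change and the higher mean in SAP, 9.66 ± 4.11 TPM; that difference between the 2 subunits was not tested.

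Among the stator subunits, which hold the head still, Atp6v1e1 and Atp6v1g1 rose clear of Con. Atp6v1e1 was 20.4 ± 6.22 TPM in Con, 29.2 ± 7.82 in AP and 45.9 ± 7.71 in SAP, 2.25-fold above Con (limma adjusted p = 1.49e-06) and 1.58-fold above AP (adjusted p = 0.00155). Atp6v1g1 was 77.1 ± 7.25 TPM in Con, 66.9 ± 10.5 in AP and 118 ± 18.0 in SAP, 1.51-fold above Con (adjusted p = 3.42e-05) and 1.75-fold above AP (adjusted p = 4.95e-07). Atp6v1c1, the C subunit at the junction where V1 and V0 join, rose 1.64-fold over Con, from 5.01 ± 1.13 to 9.21 ± 3.43 TPM (adjusted p = 0.000365). The rotor subunits did not pass against Con, and they were not tested against the stator subunits. Atp6v1d was 9.78 ± 3.34 TPM in Con and 10.8 ± 4.55 in SAP, with a log2 change of 0.10 (95% confidence interval -0.32 to 0.52), and Atp6v1f was 103 ± 20.3 TPM in Con and 103 ± 13.6 in SAP, with a log2 change of 0.00 (interval -0.23 to 0.24) that turned to -0.27 with libraries centred on their medians (adjusted p = 0.0274). Atp6v1f was lower in SAP than in AP, where it stood at 127 ± 14.4 TPM (0.808-fold, adjusted p = 0.0176), a call lost under quantile normalization, under rescaling without the 50 most abundant genes and without SAP 21, 22, 24 and 25 (adjusted p 0.0728 to 0.274).

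Atp6v1h, the regulatory H subunit that holds free V1 inactive, was the V1 subunit that fell. It stood at 23.0, 27.5 and 34.0 TPM (lowest, median and highest) in Con, 16.0, 22.8 and 29.9 TPM in AP and 14.1, 16.4 and 23.8 TPM in SAP. In SAP 6 of 8 libraries lay below all of Con. The fall from Con was 0.656-fold (log2 -0.61, SE 0.14, limma adjusted p = 0.000391). Against AP it was 0.801-fold (adjusted p = 0.0440), a call lost when any of AP 11, 12, 13, 15 or 16 or SAP 21, 22, 24, 25 or 26 was left out (adjusted p 0.0516 to 0.0987). Summed over the sector, V1 transcripts came to 250.4 ± 39.1 TPM in Con, 270.4 ± 24.3 in AP and 319 ± 33.3 in SAP, with overlapping ranges.

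In the V0 sector, the paralogues of the e subunit moved in opposite directions. Atp6v0e, a small membrane subunit, stood at 7.53, 11.4 and 21.6 TPM (lowest, median and highest) in Con, 11.9, 19.2 and 33.5 TPM in AP and 51.9, 62.8 and 67.1 TPM in SAP. Its paralogue Atp6v0e2 stood at 2.73, 3.94 and 6.45 TPM in Con, 2.77, 4.20 and 4.93 TPM in AP and 0.990, 1.60 and 2.54 TPM in SAP. In SAP all libraries were above the other groups for Atp6v0e and below them for Atp6v0e2. Against Con, Atp6v0e was 4.63-fold higher (log2 2.21, SE 0.20, limma adjusted p = 4.45e-10) and Atp6v0e2 0.50-fold (adjusted p = 2.77e-06), and against AP they were 2.90-fold (adjusted p = 2.51e-07) and 0.523-fold (adjusted p = 7.78e-06). Atp6v0e accordingly made up 74.8% ± 3.01 of the pair's TPM in Con, 83.6% ± 3.17 in AP and 97.4% ± 0.863 in SAP.

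The a subunit, which forms the proton channel with the ring and directs the pump to its membrane, exists in several forms. Atp6v0a1 stood at 10.5, 13.2 and 16.1 TPM (lowest, median and highest) in Con, 9.75, 12.5 and 15.0 TPM in AP and 30.8, 34.0 and 53.0 TPM in SAP. SAP was clear of both other groups, 2.75-fold above Con (log2 1.46, SE 0.13, limma adjusted p = 3.82e-10) and 2.87-fold above AP (adjusted p = 2.14e-10). Atp6v0a2, the form known from the Golgi and endosomes, was 3.73 ± 0.515 TPM in Con, 3.31 ± 0.714 in AP and 4.36 ± 1.22 in SAP. It did not pass against Con (log2 change 0.16, 95% confidence interval -0.11 to 0.43) and was 1.23-fold above AP (adjusted p = 0.0433), a call lost when any of 9 libraries was left out (AP 11, 12, 13, 15 or 18, SAP 25, 26, 28 or 29; adjusted p 0.0589 to 0.102). The remaining a subunit of broad expression, Tcirg1 (a3), whose symbol falls outside the naming rule, was 39.1 ± 17.2 TPM in Con, 36.8 ± 9.05 in AP and 47.8 ± 17.8 in SAP and did not pass in any comparison. Counted with Tcirg1, Atp6v0a1 made up 25.2% ± 5.37 of a subunit TPM in Con, 24.8% ± 5.80 in AP and 43.8% ± 11.9 in SAP, where the lowest library, at 28.9%, overlapped both other groups. Its mean share was 33.1% in SAP 21, 22, 24 and 25 and 54.6% in SAP 26 to 29. Both genes had different means in these sets, which were not tested against each other. Tcirg1 averaged 62.05 TPM (51.8 to 71.95) in the former and 33.61 TPM (19.7 to 43.83) in the latter. Atp6v0a1 averaged 32.1 TPM (30.84 to 34.97) and 45.5 TPM (33.08 to 52.95), with overlapping ranges.

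The proteolipid ring is built mainly of Atp6v0c, with Atp6v0b as a further ring subunit. Atp6v0c stood at 70.8, 95.5 and 153 TPM (lowest, median and highest) in Con, 113, 138 and 185 TPM in AP and 176, 235 and 246 TPM in SAP. SAP cleared Con, and 7 of 8 SAP libraries lay above all of AP, with a 2.20-fold rise over Con (limma adjusted p = 1.97e-07) and a 1.58-fold rise over AP (adjusted p = 0.00034). The level of Atp6v0c is uncertain, because 88.0% of the 50-base windows of the pseudogene Atp6v0c-ps2 occur in it. That pseudogene was listed at 38.8 ± 16.4 TPM in Con, 67.1 ± 23.2 in AP and 209.5 ± 35.1 in SAP, so it rose 5.66-fold over Con (adjusted p = 5.98e-10), and reads of the 2 genes may not have been told apart. Atp6v0b was 41.7 ± 8.42 TPM in Con, 46.6 ± 5.24 in AP and 46.0 ± 6.94 in SAP and passed in no comparison.

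Atp6v0d1, which couples the rotor to the ring, was 25.9 ± 3.42 TPM in Con, 33.1 ± 5.61 in AP and 32.8 ± 7.04 in SAP. Its 1.24-fold rise over Con (limma adjusted p = 0.0309) was lost when any of Con 1, 7 or 10 or SAP 26, 28 or 29 was left out (adjusted p 0.0531 to 0.0716), without SAP 26 to 29 together (0.645), and under quantile normalization, median centring or array weights (0.0589 to 0.716). The V0 sum was 206 ± 48.9 TPM in Con, 264 ± 43.2 in AP and 408 ± 32.3 in SAP, and the lowest SAP library, at 351 TPM, lay above the highest of Con, 288 TPM, and of AP, 318 TPM. Atp6v0c, whose level is uncertain, gave 104 TPM of that sum in Con, 142 in AP and 223 in SAP on average, so the sum carries the same uncertainty.

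Promoters are shown for Ctsl and Lamp1, which rose most among the cathepsins and membrane glycoproteins, for Ctsd, and for the pair Atp6v0e and Atp6v0e2, which moved apart. Each run holds 250 bases before and 50 bases after the RefSeq start in GRCm38.p6, written 5′ to 3′ along the gene's strand, and capitals mark the palindromic E-box CACGTG. The windows are chr13:64370471-64370770 (minus strand) for Ctsl, chr8:13158911-13159210 (plus strand) for Lamp1, chr7:142387778-142388077 (minus strand) for Ctsd, chr17:26676146-26676445 (plus strand) for Atp6v0e and chr6:48537319-48537618 (plus strand) for Atp6v0e2.
Ctsl: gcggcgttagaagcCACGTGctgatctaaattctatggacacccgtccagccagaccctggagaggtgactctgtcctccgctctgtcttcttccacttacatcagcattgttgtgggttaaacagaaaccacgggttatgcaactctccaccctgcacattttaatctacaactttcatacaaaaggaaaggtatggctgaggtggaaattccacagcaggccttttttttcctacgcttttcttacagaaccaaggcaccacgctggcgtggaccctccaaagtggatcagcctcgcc
Lamp1: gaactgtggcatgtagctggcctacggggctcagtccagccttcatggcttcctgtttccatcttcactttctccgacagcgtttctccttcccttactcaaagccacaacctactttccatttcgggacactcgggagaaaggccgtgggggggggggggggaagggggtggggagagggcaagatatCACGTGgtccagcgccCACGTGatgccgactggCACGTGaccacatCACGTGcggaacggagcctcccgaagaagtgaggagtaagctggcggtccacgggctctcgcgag
Ctsd: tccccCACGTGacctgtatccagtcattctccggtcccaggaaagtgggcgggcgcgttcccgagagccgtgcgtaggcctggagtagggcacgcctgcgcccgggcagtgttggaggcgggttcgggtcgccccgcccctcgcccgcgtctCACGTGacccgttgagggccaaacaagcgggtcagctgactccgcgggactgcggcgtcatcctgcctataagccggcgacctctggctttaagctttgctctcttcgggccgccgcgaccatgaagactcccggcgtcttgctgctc
Atp6v0e: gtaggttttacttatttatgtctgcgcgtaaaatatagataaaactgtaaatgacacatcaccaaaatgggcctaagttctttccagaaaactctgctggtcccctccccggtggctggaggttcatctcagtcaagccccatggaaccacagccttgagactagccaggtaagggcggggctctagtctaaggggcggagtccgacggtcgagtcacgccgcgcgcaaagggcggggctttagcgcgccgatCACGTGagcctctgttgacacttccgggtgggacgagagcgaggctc
Atp6v0e2: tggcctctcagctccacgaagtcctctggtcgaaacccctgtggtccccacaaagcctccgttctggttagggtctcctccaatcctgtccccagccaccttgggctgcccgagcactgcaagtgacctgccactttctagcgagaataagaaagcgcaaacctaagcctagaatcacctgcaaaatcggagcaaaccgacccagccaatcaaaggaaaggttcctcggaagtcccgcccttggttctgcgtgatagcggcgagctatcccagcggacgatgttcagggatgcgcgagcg
Lamp1 held 4 E-boxes, which began 61, 45, 28 and 15 bases before the start, and Ctsd held 2, at 245 and 98 bases before it. Ctsl held 1, at 236 bases before the start, Atp6v0e held 1 just after the start, and Atp6v0e2 held none.

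The E-box is the core of the sequence bound by the MiT/TFE factors, among them Tfeb and Tfe3, that switch on lysosomal genes, so its presence was counted over the family. RefSeq promoters were matched by symbol for 32 of the 42 genes (36 promoters), and for 20 of the 28 tested. CACGTG, which reads the same on both strands, was in 9 of the 36 promoters (25.0%) against 7.15% of all 32851 promoters. The longer TCACGTG, searched on both strands and always containing the shorter one, was in 7 of the 36 (19.4%) against 3.77% of all. The set of all promoters was not limited to genes tested here, whereas all 9 genes with an E-box were tested. No share over the promoters of tested genes was computed. Among tested genes with a promoter, the E-box was in 7 of the 12 that were higher in SAP than in Con (Atp6v0d1, Atp6v0e, Atp6v1a, Ctsd, Ctsf, Ctsl and Lamp1), in 2 of the 7 that did not pass (Atp6v0b and Ctsa) and in 0 of the 1 that was lower (Atp6v0e2). The longer TCACGTG was in 5 of those 12, as Ctsf and Ctsl lacked it, in 2 of the 7 and in 0 of the 1. A match describes these letters only and not a bound site.

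Levels in SAP against AP gave nearly the same counts as against Con, with 17 of the 28 genes higher (60.7%, against 41.0% of all genes tested), 3 lower (10.7%, against 31.0%) and 8 not passing. The median log2 change was 0.48, against 0.13 over all genes. All 8 SAP libraries lay above all AP libraries for 7 genes (22.0% of all genes did so) and below them for 1 (15.2%), where 37.3% of all genes did either. Centred on library medians, 14 were higher and 9 lower, and over all genes 35.1% were higher and 40.5% lower. The 3 lower genes were the pump subunits Atp6v1f, Atp6v1h and Atp6v0e2. Of the 11 cathepsins tested 6 were higher and none was lower as deposited, but with libraries centred on their medians 5 were higher and 3, Ctsz, Ctse and Ctsa, were lower (adjusted p 0.00045 to 0.0404).

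AP against Con asked whether the same genes moved in the milder disease, and 2 of the 28 passed (7.14%, against 5.48% of all genes tested), both higher (4.35% of all genes were), which is near the background. For none of the 28 did the AP libraries lie wholly above or below those of Con, against 0.748% of all genes, 0.644% above and 0.104% below. The median log2 change was 0.18, against 0.06 over all genes. Ctse stood at 0.760, 1.21 and 1.84 TPM (lowest, median and highest) in Con and 1.41, 2.71 and 4.05 TPM in AP, with 7 of 8 AP libraries above every Con library. Its rise was 1.70-fold (log2 0.76, SE 0.17, limma adjusted p = 0.0118), and it held under every alternative tried. Atp6v0e was 13.2 ± 5.43 TPM in Con and 21.3 ± 7.43 in AP, a 1.60-fold rise (adjusted p = 0.0483) with overlapping groups. That call was lost under 14 of 25 alternatives, among them leaving out any of Con 1, 5, 7, 8 or 10 or AP 11, 15, 17, 18 or 19 (adjusted p 0.0591 to 0.124).

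Several of the genes with the largest rises in SAP had AP means above Con without passing. Lamp1 was 86.0 ± 28.8 TPM in AP against 55.7 ± 16.9 in Con (1.53-fold, limma adjusted p = 0.0644), Ctsh 63.2 ± 27.5 against 36.5 ± 15.4 (1.70-fold, adjusted p = 0.0732), and Ctsl 1.54-fold (adjusted p = 0.0827). Each of these passed when Con 3 or Con 6 was left out, Ctsh also without AP 12 or 13 and Lamp1 without AP 13 (adjusted p 0.0295 to 0.0432). Atp6v0c likewise passed without Con 3 or 6 or AP 12, 13 or 16 (adjusted p 0.0176 to 0.0493), Atp6v1e1 without Con 3 or 6 (0.0402 to 0.0453), and Ctsd and Atp6v1f without Con 3 (0.0425 and 0.0363). Within AP, the libraries AP 15, 17 and 19 were the highest for Ctsl (165, 135 and 166 TPM, against 83.6 to 94.7 in the other 5) and stood high for Lamp1 (123, 108 and 126 TPM). These libraries had mitochondrial shares of 7.81%, 10.3% and 9.30%, in an AP range of 7.81% to 13.7%, but AP 18, with a share of 9.57%, had Ctsl at 94.2 TPM. In Con, Ctsl was highest in Con 3 and 6 (118 and 125 TPM), with shares of 12.5% and 14.2%, and lowest in Con 7 and 10 (42.1 and 38.2 TPM), with shares of 22.2% and 21.9%, while the other 4 ranged from 58.9 to 81.3 TPM, with shares of 15.1% to 19.8%. The part of the mitochondrial share in these differences was not tested.

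The SAP libraries were not uniform. SAP 21, 22, 24 and 25 and SAP 26 to 29 stood apart from each other in earlier results of these data, and no label separates them. Means in the former and the latter set were 7.38 and 11.9 TPM for Atp6v1b2, 6.92 and 11.5 for Atp6v1c1, 7.80 and 13.8 for Atp6v1d, 32.1 and 45.5 for Atp6v0a1, 15.5 and 21.1 for Atp6v1h, and 1.17 and 2.08 for Atp6v0e2. These 6, named after their values were seen, all had the higher mean in the latter set, whether they rose, fell or did not pass against Con. The ranges of the sets overlapped for each of them except Atp6v0e2 (0.99 to 1.47 and 1.74 to 2.54 TPM). The sets were not tested against each other. Of the 28 genes 20 had the higher mean in the latter set and 8 the lower, among them Ctsl (1651 and 1395 TPM), Atp6v0c (235 and 211 TPM) and Ctsb (106 and 96.3 TPM). With SAP 26 to 29 left out, 16 genes were higher than Con and 2 lower, and with SAP 21, 22, 24 and 25 left out, 19 were higher and 2 lower. Against AP the numbers higher were 11 and 17, the smaller one without SAP 26 to 29, where Atp6v1c1, Atp6v1e1 and Ctsd no longer passed.

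The 14 genes below the filter are forms known mostly from other tissues. They comprise the kidney and inner ear forms Atp6v1b1 and Atp6v0a4, the osteoclast-associated Atp6v0d2, Atp6v1c2, Atp6v1e2, Atp6v1g2 and Atp6v1g3, the bone collagenase Ctsk, the leukocyte proteases Ctsg and Ctsw, and Ctsj, Ctsm, Ctsq and Ctsr, which in rodents belong to a cluster expressed in the placenta. Of these, Atp6v1g3, Ctsm, Ctsq and Ctsr were listed at 0 in every library, and the highest single value of the 14 was 6.30 TPM, for Atp6v1c2 in Con 3. Atp6v0d2 ranged from 0.140 to 0.820 TPM in Con, 0.150 to 0.440 in AP and 0 to 0.0300 in SAP, and Ctsw from 0.150 to 0.740, 0.0800 to 0.390 and 0 to 0.110. Ctsj was listed at 0 in every Con and AP library and reached 0.970 TPM in SAP. These levels are too low for a test, and a value of 0 here may be a failed estimate.

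The rest of the lysosomal pathway was described by 6 lists. Of 12 tested partners and assembly factors of the pump, 6 were higher in SAP than in Con, where 44.2% of all genes tested were higher. Of the same 12, 1 was lower (8.33%, against 29.8% of all genes) and 5 did not pass. Atp6ap2, the (pro)renin receptor and an accessory subunit, rose from 3.89 ± 0.588 TPM in Con to 12.1 ± 3.47 in SAP (2.60-fold, limma adjusted p = 3.11e-09), and Ccdc115, an assembly factor, from 2.65 ± 0.645 to 10.3 ± 3.28 TPM (3.03-fold, adjusted p = 7.31e-09). The lower one, named after its values were seen, was Rnasek, a small protein bound to the pump (0.695-fold, adjusted p = 0.000105). Against AP 4 were higher (33.3%, against 41.0% of all genes) and 1 lower (8.33%, against 31.0%), and between AP and Con none passed (5.48% of all genes did).

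Other lysosomal hydrolases and their activators were called in both directions. Of 42 tested, 18 were higher in SAP than in Con (42.9%, against 44.2% of all genes tested), 15 were lower (35.7%, against 29.8%) and 9 did not pass, which is near the background, with a median log2 change of 0.12. Of the 11 tested cathepsins 7 were higher and none was lower, with a median of 0.63. With libraries centred on their medians, 14 of the hydrolases were higher and 19 lower, and 6 of the cathepsins were higher and 2, Ctsz and Ctss, lower. Over all genes 36.8% were then higher and 40.7% lower. Lgmn, the asparaginyl endopeptidase that processes cathepsins, rose from 13.8 ± 6.12 to 57.8 ± 16.1 TPM (4.07-fold, limma adjusted p = 1.7e-08), and Gm2a, the activator of ganglioside breakdown, fell from 35.0 ± 4.67 to 8.21 ± 1.29 TPM (0.256-fold, adjusted p = 7.91e-14). Gm2a was also the only one of the 42 that passed between AP and Con, where it was lower (0.768-fold, adjusted p = 0.0449). Against AP, 11 of the 42 were higher in SAP (26.2%, against 41.0% of all genes) and 17 lower (40.5%, against 31.0%). No test compared the cathepsins with the other hydrolases.

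Lysosomal membrane proteins and transporters other than Lamp1 and Lamp2 were near the background too, with 11 of 26 higher in SAP than in Con (42.3%), 9 lower (34.6%) and 6 not passing. The tetraspanin Cd63 rose from 6.62 ± 2.42 to 86.2 ± 23.6 TPM (11.5-fold, limma adjusted p = 1.38e-14), and the endolysosomal cation channel Tpcn1 fell from 8.97 ± 1.26 to 0.891 ± 0.299 TPM (0.189-fold, adjusted p = 7.35e-16). Against AP 10 were higher (38.5%, against 41.0% of all genes) and 8 lower (30.8%, against 31.0%). In AP against Con 1 was higher (Lamtor2) and 1 lower (Slc38a9), both named after their values were seen. Each is 3.85% of the list, against 4.35% and 1.13% of all genes. Of 14 genes that sort hydrolases to lysosomes, 5 were higher in SAP than in Con (35.7%, against 44.2% of all genes tested) and 3 lower (21.4%, against 29.8%). These included the cation-dependent mannose 6-phosphate receptor M6pr, from 19.97 ± 4.61 to 34.9 ± 6.26 TPM (1.72-fold, adjusted p = 2.36e-05), and the retromer subunit Vps29 (2.20-fold, adjusted p = 8.88e-07). The other mannose 6-phosphate receptor, Igf2r, was lower (0.772-fold, adjusted p = 0.00269). In SAP against AP 4 were higher (28.6%, against 41.0% of all genes) and 3 lower (21.4%, against 31.0%). In AP against Con 1 passed (7.14%, against 5.48%), Gnptg, which was higher.

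The cytosol and the secretory pathway hold inhibitors of the cysteine cathepsins, the stefins and cystatins. Of 9 listed 3 were tested. Cstb, the cytosolic inhibitor stefin B, stood at 31.0 ± 16.2 TPM in Con, 43.2 ± 11.2 in AP and 116 ± 25.9 in SAP, with all SAP libraries above all of Con (3.94-fold, limma adjusted p = 2.8e-08). Stfa2l1, of the stefin A group, rose from 0.200 ± 0.245 to 5.14 ± 2.27 TPM (4.90-fold on the log2(TPM + 1) scale, adjusted p = 3.41e-11). With a Con mean below 1 TPM, it passed the filter because of its level in SAP, so its call is not independent of the filter. Cst3, the secreted cystatin C, did not pass against Con and was 0.801-fold in SAP against AP (adjusted p = 0.0163), while none of the 3 passed between AP and Con. Of the factors that bind the E-box of lysosomal genes, Tfeb fell from 8.04 ± 1.56 TPM in Con and 7.12 ± 0.837 in AP to 1.07 ± 0.601 in SAP (0.224-fold of Con, adjusted p = 1.54e-12), and Tfe3 rose from 6.32 ± 1.85 and 6.26 ± 1.53 to 26.3 ± 8.54 TPM (3.64-fold of Con, adjusted p = 4.5e-09). Neither passed in AP against Con, and the other 2 of the 4 factors listed were below the filter.

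**Figure D4:**
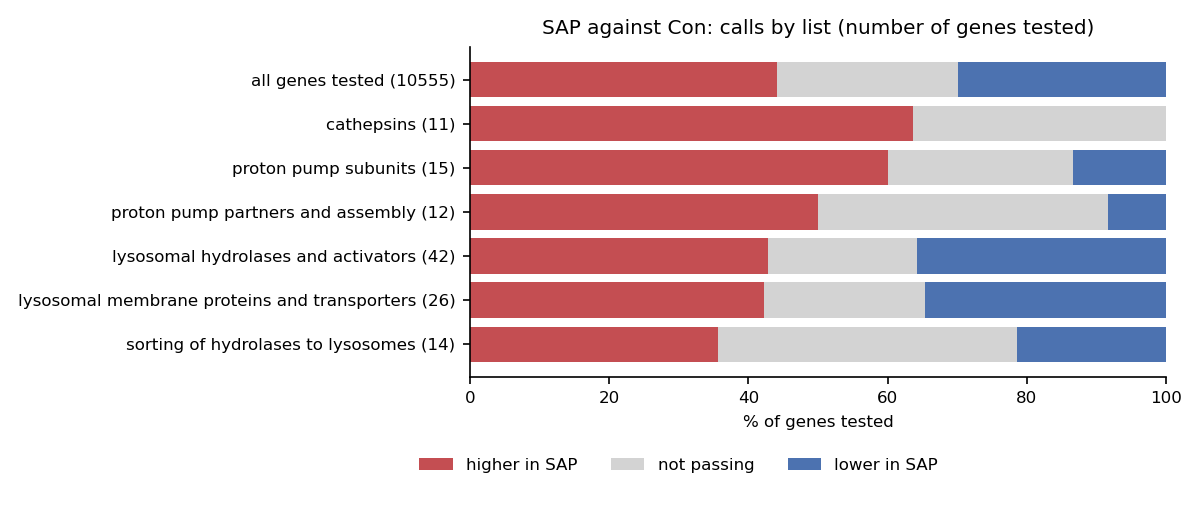
For each list, the share of its tested genes that were higher, not passing or lower in SAP than in Con at an adjusted p under 0.05, with all 10555 genes tested for scale. Of 11 cathepsins 7 are higher and none is lower with values as deposited (6 and 2 with libraries centred on their medians), and of 42 other hydrolases 18 are higher and 15 lower (14 and 19).

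Marker genes of other cells moved between the groups beside these results. The 15 neutrophil markers summed to 5.29 to 48.7 TPM in Con, 8.28 to 32.2 in AP and 131.5 to 367 in SAP. Only 6 of the 15 were tested, and 5 of these were higher in SAP than in Con, while Prtn3 was lower. Markers low in Con can pass the filter through SAP alone, so the filter may have shaped this count. For scale, 44.2% of all genes tested were higher in SAP than in Con and 29.8% were lower. The 12 markers of Kupffer cells and other macrophages summed to 132 to 461 TPM in Con, 95.7 to 294 in AP and 117 to 238 in SAP, and of 11 tested 7 were lower and 1, Marco, was higher. The median of that sum was 199 TPM in Con and 150.1 TPM in SAP. Monocyte markers summed to 17.2 to 76.8 TPM in Con, 10.7 to 50.7 in AP and 37.8 to 64.7 in SAP. Stellate cell markers came to 32.5 to 65.2, 18.7 to 56.2 and 54.8 to 124 TPM in the same order, a sum carried by Dcn (23.1 TPM in Con and 80.3 in SAP on average), while 4 of the 6 tested were lower in SAP than in Con and 2 were higher, with a median log2 change of -0.73. In that order cholangiocyte markers came to 12.3 to 25.9, 12.0 to 34.5 and 23.7 to 80.1 TPM, and endothelial markers to 28.1 to 66.1, 24.3 to 67.6 and 14.9 to 68.1 TPM. Only 2 of the 5 cholangiocyte markers were tested. Spp1 was higher in SAP than in Con, and the other did not pass. T and NK cell markers stayed at or under 11.3 TPM, B cell markers at or under 4.60 TPM and exocrine pancreas markers at or under 41.6 TPM. Every marker was above 0 in some library of each group except Cel, at 0 in all of Con, and Cpa1, at 0 in all of SAP. The part of neutrophils, macrophages and the other cell types in the changes of pump subunits and cathepsins was not tested.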

How the data were processed

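Expression was measured by RNA-seq in 24 liver libraries, 8 per group, grouped by their titles. The authors deposited TPM with 2 decimals, a unit inferred from column totals because the header does not name it. Per the submitters' processing notes edgeR was used, with no version or role given. For the aligner, genome build, annotation, strand setting and step to TPM, the sources used here say nothing. Without counts no count model was fitted.

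From the deposited TPM, log2(TPM + 1) was fitted by group with limma 3.58.1 in R 4.3.3 (intensity trend, all 24 libraries, 21 residual degrees of freedom) for the 10555 entries with a mean of at least 1 TPM. The other 44981 were left out. The test was checked on simulated data. The members, the 6 pathway lists and the 10 marker lists were chosen with earlier results of these data known. Genes named from a pathway list are the 2 with the smallest p over all groups and, where 5 or fewer passed, others said to be chosen after their values were seen, as were Igf2r, Cst3 and Gnptg. Shared sequence was taken from GENCODE M21 transcripts in 50-base windows, a level being called uncertain from 20% shared, and promoters from RefSeq GRCm38.p6. Alternatives were quantile normalization, median centring, rescaling without the 50 most abundant genes, no trend, array weights, no filter, a stricter filter (1 TPM in at least 8 libraries), a pseudocount of 0.1, the 2 groups alone, leaving out each library, and leaving out each of 2 sets of SAP libraries.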

Additional observations from a re-analysis of the deposited data

Results flagged for a closer look

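Among the 28 tested genes in 3 groups, 84 sets of 8 libraries were examined for a single library far from the rest by the 95% critical value of Dixon's test, on log2(TPM + 1). Chance gives about 1 in 20, or 4.2 sets, and 2 were found. Ctsl in SAP 22 was 2153.63 TPM, with 1546.89 TPM in the next library (gap over range 0.566), and Ctss in Con 3 was 46.04 TPM, with 17.48 TPM in the next (0.660). Con 3 also had the highest sum of macrophage markers among controls, whose part was not tested.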

How the results depend on the processing

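Calls of the 28 genes were kept under every alternative for 17 of 20 in SAP against Con, 12 of 20 in SAP against AP and 1 of 2 in AP against Con. The cause of the changes below was not tested. In AP against Con, where 2 genes were higher and 0 lower, median centring gave 7 higher, array weights 10, and rescaling without the 50 most abundant genes, no trend, no filter and the 2 groups alone 1 each, and quantile normalization gave 1 lower. Leaving out 1 library gave 1 to 9 higher: 9 without Con 3, 7 without Con 6, 5 without AP 13, 4 without AP 12, and 1 without Con 1, 5, 7, 8 or 10 or AP 11, 15, 17, 18 or 19. Over all genes 578 passed; median centring gave 1006, array weights 1458, no filter 222, and leaving out 1 library 180 to 841, with the lowest without Con 7. In SAP against Con, 2 genes were lower, but 5 under median centring (40.7% of all genes were lower there) and 5 with no filter. In SAP against AP, 17 were higher and 3 lower. Median centring gave 9 lower (40.5% of all genes were lower there), rescaling 1 and leaving out SAP 21, 22, 24 and 25 gave 1, while leaving out SAP 26 to 29 gave 11 higher. With no filter 5 were lower, again counting genes below the filter, and Atp6v1h lost its call. Median centring turned the log2 change from Con to SAP of Atp6v1f to -0.27 (limma adjusted p = 0.0274) and of Ctsz to -0.26 (adjusted p = 0.0263). It moved the median of all genes from 0.21 to -0.06 there, and other rises should be read relative to that shift. No paired analysis was possible because the groups share no replicate numbers. TPM without depth limits what can be said of genes near 0.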
